A study of Mus musculus with 6 samples.

Results

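The 4 genes described here take ketone bodies from the blood to acetyl-CoA in heart muscle: Slc16a1, Bdh1, Oxct1 and Acat1. They were chosen by name, and each symbol matched 1 of the 25901 rows of the deposited expression table. There were 3 hearts labelled WT (WT2368, WT2379 and WT2378) and 3 labelled SRAKO (SRAKO2365, SRAKO2371 and SRAKO2372), and per the series design text mice of both genotypes were given isoproterenol, a beta-adrenergic agonist, for 4 weeks. SRA is the RNA product of Sra1 and serves as a coactivator of nuclear receptors. The labels do not say how the allele was made, in which cells it acts, or the animals' age, strain or sex. The only contrast is SRAKO against WT under isoproterenol, and untreated hearts were not analysed here. The labels give every heart a number of its own but do not state that each came from a separate animal. Each p-value rests on the spread between these samples, which limma combines with the spread in the other tested rows.

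Ketone bodies are made by the liver in fasting and are burned by the heart, which takes up beta-hydroxybutyrate and acetoacetate in proportion to their level in blood. Slc16a1 encodes the monocarboxylate carrier MCT1, which brings ketone bodies, lactate and pyruvate across the plasma membrane together with a proton. In the mitochondrion BDH1 oxidises beta-hydroxybutyrate to acetoacetate, OXCT1 (also called SCOT) activates acetoacetate with the CoA of succinyl-CoA, and ACAT1 cleaves acetoacetyl-CoA to acetyl-CoA. Ketone oxidation has been described as a fuel that failing hearts turn to, which is the setting in which these genes are usually studied.

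All 4 genes were expressed well above the filter in each heart, and 0 of the 4 passed the test between genotypes. In mean FPKM (fragments scaled to transcript length and library size) over 6 hearts, Oxct1 stood highest at 141, followed by Acat1 at 68.0, Bdh1 at 39.0 and Slc16a1 at 23.9. This order held in 6 of 6 hearts, and the ranges of neighbours in it did not overlap: the lowest Oxct1 value was 130.2 and the highest Acat1 value 72.02, the lowest Acat1 value 64.6 and the highest Bdh1 value 50.3, and the lowest Bdh1 value 31.3 and the highest Slc16a1 value 28.9. Among the 10201 rows that reached 1 FPKM in 3 or more hearts, Oxct1 ranked 187, Acat1 377, Bdh1 653 and Slc16a1 1038 by mean level. In whole-heart RNA, fewer cells of a type and less RNA per cell cannot be told apart.

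The gene positions below are those of GENCODE M21 on GRCm38, reached through the transcript identifiers of each row, since the table gives no coordinates. Bdh1 (ENSMUSG00000046598) spans chr16:31422280-31458901 (plus strand), and its row joins 6 transcripts. Oxct1 (ENSMUSG00000022186) spans chr15:4026383-4155344 (plus strand), with 5 transcripts in its row and 17 exons in the longest. Acat1 (ENSMUSG00000032047) spans chr9:53580522-53610382 (minus strand), and its row joins 3 annotated transcripts with 3 that were assembled from the reads. Slc16a1 (ENSMUSG00000032902) spans chr3:104638668-104658462 (plus strand) and rests on 1 transcript, with the sense-intronic genes Gm43581 and Gm43585 inside it. The annotation places an antisense gene, Gm15743, within Bdh1, and it has a row of its own at 1.03 to 1.84 FPKM. Oxct1 has Gm15632 and BC037032 on its other strand, and BC037032 was at 0.247 or less in every heart. The labels do not say whether strand was kept, so how reads from overlapping stretches were assigned to these genes is not known.

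The Bdh1 row joins 6 transcripts, and RefSeq gives separate starts for this gene. Which transcripts of the row begin at which start was not examined, and its level cannot be divided between the starts. The windows around the starts differ in composition. The sequences are RefSeq's on GRCm38.p6, 250 bases before to 50 after a start, 5′ to 3′ on the plus strand; windows of 3 of the 4 genes were in the table used. Capitals mark a GC box (GGGCGG) or an E-box (CACGTG), searched on both strands. Bdh1 window 1 is chr16:31422047-31422346, Bdh1 window 2 is chr16:31428503-31428802, Oxct1 is chr15:4026178-4026477 and Slc16a1 is chr3:104638414-104638713.
Bdh1 window 1: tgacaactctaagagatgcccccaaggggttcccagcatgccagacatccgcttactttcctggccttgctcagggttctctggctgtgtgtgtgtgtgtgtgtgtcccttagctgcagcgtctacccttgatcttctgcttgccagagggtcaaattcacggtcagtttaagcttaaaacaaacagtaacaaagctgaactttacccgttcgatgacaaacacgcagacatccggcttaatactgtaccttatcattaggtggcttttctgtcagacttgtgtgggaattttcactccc
Bdh1 window 2: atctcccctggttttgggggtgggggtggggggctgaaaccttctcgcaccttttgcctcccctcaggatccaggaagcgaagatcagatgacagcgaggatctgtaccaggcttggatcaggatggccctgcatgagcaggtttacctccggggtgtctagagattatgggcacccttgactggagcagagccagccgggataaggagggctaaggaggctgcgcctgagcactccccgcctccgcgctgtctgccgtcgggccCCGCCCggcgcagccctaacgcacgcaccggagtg
Oxct1: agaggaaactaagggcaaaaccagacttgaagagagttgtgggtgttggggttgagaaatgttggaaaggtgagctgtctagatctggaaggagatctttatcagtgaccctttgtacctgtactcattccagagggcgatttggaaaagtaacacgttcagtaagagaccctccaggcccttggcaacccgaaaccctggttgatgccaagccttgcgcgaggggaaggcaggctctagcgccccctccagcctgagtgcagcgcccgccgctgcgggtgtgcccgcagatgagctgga
Slc16a1: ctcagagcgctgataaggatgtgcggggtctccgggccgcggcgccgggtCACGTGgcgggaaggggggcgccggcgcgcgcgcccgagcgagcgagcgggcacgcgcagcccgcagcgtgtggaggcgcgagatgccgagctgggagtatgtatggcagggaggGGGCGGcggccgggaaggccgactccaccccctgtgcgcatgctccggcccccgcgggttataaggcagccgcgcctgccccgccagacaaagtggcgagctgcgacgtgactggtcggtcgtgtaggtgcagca

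GC content was 48.3% in Bdh1 window 1, 63.7% in Bdh1 window 2, 55.3% in Oxct1 and 73.7% in Slc16a1, against a median of 52.7% over 32851 windows of the same length. The number of CpG pairs ran from 7 in Bdh1 window 1 to 17 in Bdh1 window 2, 11 in Oxct1 and 42 in Slc16a1 (median of all windows 7). A GC box was present in Bdh1 window 2, 15 bases after the start, and in Slc16a1, and 35.7% of all windows hold one. The E-box of Slc16a1 begins 200 bases before the start, and 7.15% of all windows hold one; the E-box reads the same on both strands. The core AGGTCA bound by many nuclear receptors was searched too, on both strands, and these letters were in 0 of the 4 windows, against 16.3% of all windows. The motifs do not overlap one another here, and a match or its absence in such a window says nothing about binding.

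**Figure D1:**
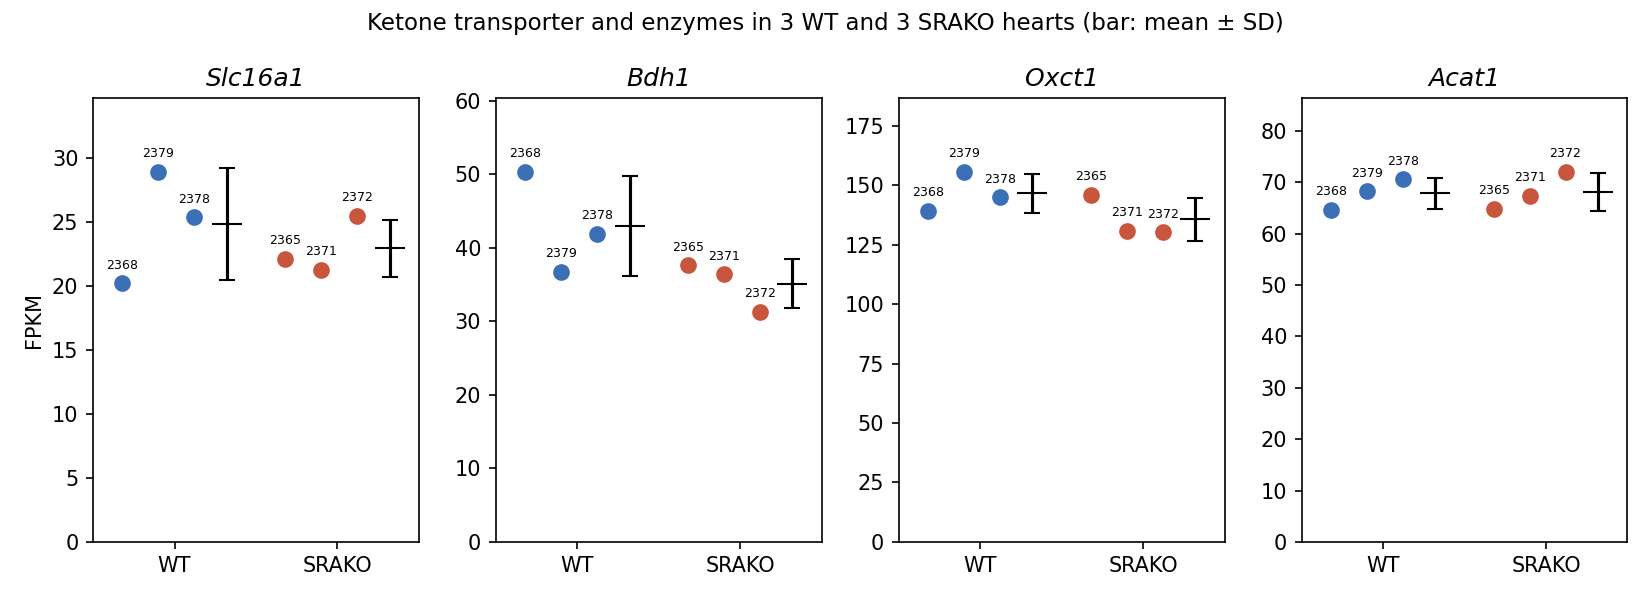
FPKM of each gene in each heart (y axes from 0, 1 panel a gene; blue WT, red SRAKO, numbers are the hearts' labels), with the mean and SD of 3 hearts at the right of each group. WT and SRAKO overlap in all 4 panels, and WT2368 is the highest heart for Bdh1 (50.3) and the lowest for Slc16a1 (20.2).

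Slc16a1, the entry step, had an FPKM of 20.2, 28.9 and 25.4 in WT2368, WT2379 and WT2378, and of 22.1, 21.3 and 25.5 in SRAKO2365, SRAKO2371 and SRAKO2372. In FPKM as deposited, the WT hearts held both the lowest and the highest value, and the SRAKO hearts lay between them. Means were 24.8 ± 4.38 and 23.0 ± 2.22 (SD, n = 3 each), and SRAKO minus WT came to -0.10 ± 0.15 (SE) in log2(FPKM + 1) units (limma; adjusted p = 0.999, Benjamini-Hochberg over all tested rows). The 95% interval ran from -0.44 to 0.24. Without WT2379 the difference was 0.01, and without WT2368 it was -0.23. With hearts rescaled by their median ratio the difference was -0.11. The scale factor was 0.913 in WT2368 and 0.997 to 1.05 in the other hearts.

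Bdh1, which encodes the dehydrogenase on the inner mitochondrial membrane, had an FPKM of 50.3, 36.7 and 41.9 in WT2368, WT2379 and WT2378. In SRAKO2365, SRAKO2371 and SRAKO2372 it was 37.6, 36.4 and 31.3. All 3 SRAKO hearts were below the WT mean and 2 were below the lowest WT heart, but SRAKO2365 was above WT2379, so the genotypes overlap. Means were 43.0 ± 6.85 and 35.1 ± 3.35, 81.7% of WT, which is -0.28 ± 0.14 (SE) in log2 units (95% interval -0.60 to 0.05; limma, unadjusted p = 0.0867, adjusted p = 0.999). This was the largest difference of the 4 genes in the fit as reported, and 7.35% of all tested rows had one larger in size. The difference leaned on WT2368 and SRAKO2372, the highest and the lowest heart. Bdh1 in WT2368 was 1.28 times the mean of the other WT hearts, and without that heart the difference was -0.16. Without SRAKO2372 it was -0.20, and without WT2379 it was -0.38 (limma, unadjusted p = 0.0351, adjusted p = 0.995).

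Oxct1, the CoA transferase that commits acetoacetate to oxidation, had an FPKM of 139, 156 and 145 in WT2368, WT2379 and WT2378, and of 146, 131 and 130.2 in SRAKO2365, SRAKO2371 and SRAKO2372. A pair of SRAKO hearts lay under every WT heart, while SRAKO2365 exceeded both WT2368 and WT2378. Means were 147 ± 8.32 and 136 ± 8.95, 92.6% of WT. In log2 units this is -0.11 ± 0.11 (SE), with a 95% interval from -0.36 to 0.14 (limma; adjusted p = 0.999).

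Acat1, the mitochondrial thiolase of the last step, which also serves isoleucine breakdown, was the steadiest of the 4. It had an FPKM of 64.6, 68.3 and 70.6 in WT2368, WT2379 and WT2378 and of 64.8, 67.4 and 72.02 in SRAKO2365, SRAKO2371 and SRAKO2372, and the genotypes covered nearly the same range. Means were 67.8 ± 3.01 and 68.1 ± 3.64, or 0.0047 ± 0.10 (SE) in log2 units (limma; adjusted p = 0.999). The 95% interval of -0.23 to 0.24 corresponds to 0.854 to 1.18 times WT on the FPKM + 1 scale. Its coefficient of variation over 6 hearts was 4.40%, and 98.0% of tested rows had a larger one. The coefficient was 6.90% for Oxct1, 13.7% for Slc16a1 and 16.5% for Bdh1.

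By limma with Benjamini-Hochberg adjustment over all rows, 0 of the 4 genes passed the threshold of 0.05, and 0 had an unadjusted p under 0.05. The background was 2 called rows of 10201 (0.0196%), and 3.46% of rows had an unadjusted p under 0.05. The genotypes overlapped in 4 of 4 genes, where 8.05% of all tested rows did not overlap and 3.76% did so with SRAKO lower. The mean difference was below 0 in 3 of the 4, against 46.5% of all rows, with a median of -0.10 beside 0.01 for all rows. Without WT2368 it was below 0 in 4 of 4 (median -0.15), but then 61.1% of all rows were below 0 and their median was -0.04.

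Summed over the 4 genes, FPKM was 274, 289 and 283 in WT2368, WT2379 and WT2378, and 271, 256 and 259 in SRAKO2365, SRAKO2371 and SRAKO2372. The SRAKO mean was 92.8% of WT (282 ± 7.59 and 262 ± 7.75), and the highest SRAKO sum lay just under the lowest WT sum. Among single rows 8.05% did not overlap between genotypes, and the share for sums of 4 rows was not computed, so nothing particular to these genes is read from the sums. Oxct1 made up 50.3% to 53.96% of the sum. Without Oxct1 the sums were 134 to 138 in WT and 125 to 129 in SRAKO. With hearts rescaled by their median ratio, the sum over the 4 genes ran from 272 to 300.5 in WT and from 254 to 269 in SRAKO. The sums were formed after the values were seen and over genes chosen with earlier results known, so they carry no test.

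**Figure D2:**
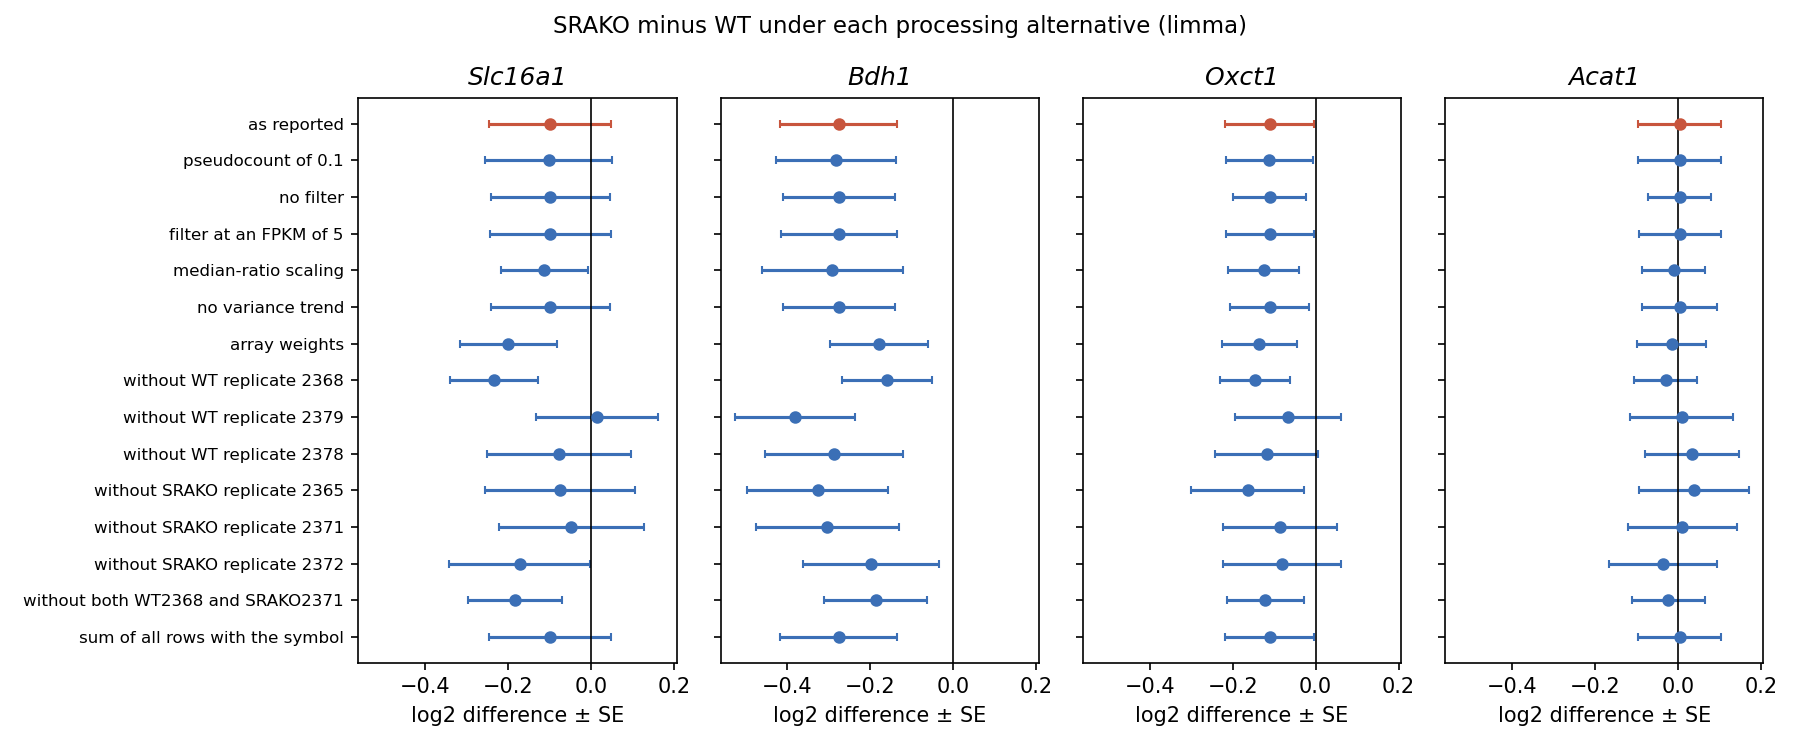
Log2 difference of SRAKO minus WT (x axis, log2(FPKM + 1) scale unless the row names another pseudocount; bars are SE from limma) for each gene under the reported fit (red) and each alternative (blue). Bdh1 and Oxct1 are below 0 in every row, Slc16a1 reaches 0.01 without WT2379, and Acat1 stays near 0 on both sides. The alternatives with another filter, without a variance trend or with summed rows repeat the reported difference by construction.

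The proportions between the steps varied from heart to heart. Within a heart, Oxct1 was 1.81 to 2.28 times Acat1, the narrowest of the 6 ratios between these genes. Bdh1 relative to Slc16a1 was the widest, from 1.23 in SRAKO2372 to 2.49 in WT2368. Acat1 relative to Bdh1 was 1.29, 1.86 and 1.69 in WT2368, WT2379 and WT2378 and 1.72, 1.85 and 2.30 in SRAKO2365, SRAKO2371 and SRAKO2372. In this ratio WT2368 was the lowest heart and SRAKO2372 the highest. In all 6 ratios the genotypes overlapped.

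The profiles of the 4 genes over the hearts were not alike. As a measure of likeness, each profile of log2(FPKM + 1) was centred, divided by its SD and compared by the root mean square difference over 6 hearts. The nearest pair was Acat1 and Slc16a1 at 0.744 SD and the farthest Bdh1 and Acat1 at 1.63 SD. Among single-symbol rows, the nearest to Bdh1 were Pus1 (0.211), a pseudouridine synthase, and Synpo2 (0.268), an actin-binding protein. Nearest to Oxct1 were the scaffold Iqgap1 (0.138) and the lipid-transfer protein Stard10 (0.149), nearest to Acat1 the kinase Sik2 (0.171) and Nop9 (0.192), and nearest to Slc16a1 the phosphatase inhibitor subunit Ppp1r2 (0.0767) and Lrch1 (0.114). The search ran over 8886 rows with 6 points each, so close matches are easily found.

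WT2368 was the lowest heart in 29 of the 44 tested genes of the pathway lists described next (65.9%, against 44.9% of all tested rows). It was the highest in 3 of the 44, namely Bdh1, Dbt and Dld, and in 10.5% of all tested rows. The mitochondrial ribosomal RNA mt-Rnr1 was at 4548 in WT2368 and at 1896 in SRAKO2371, against 879 to 1122 in the other hearts, and its part in the Bdh1 and Slc16a1 values was not tested. Sra1 itself was at 4.40, 6.31 and 4.23 in WT2368, WT2379 and WT2378 and at 1.96, 1.78 and 2.05 in the SRAKO hearts in the order above. Its log2 difference was -1.01, yet it was not called either (limma, Benjamini-Hochberg adjusted p = 0.258). A gene that was not called may therefore still differ between genotypes. All 7 cardiomyocyte markers examined, among them Myh6 and Tnnt2, were tested rows, and their summed FPKM was 9779 to 11910 in WT and 10609 to 10674 in SRAKO. The 5 hepatocyte markers were below 1 in every heart, and 4 listed skeletal muscle markers summed to 2.61 or less. Summed FPKM in WT and SRAKO was 136 to 162 and 155 to 157 for fibroblast markers, 162 to 250.1 and 224 to 231 for smooth muscle, 48.2 to 58.1 and 61.1 to 67.1 for macrophages, 2482 to 8439 and 2978 to 3509 for atrial markers, and 1397 to 2096 and 1070.4 to 2425 for erythroid markers. A single abundant gene made up most of some sums: Nppa of the atrial one (6576 in WT2379), Acta2 of smooth muscle and Dcn of fibroblasts. Such a sum mainly follows that gene. C1qa was the largest part of the macrophage sum, at 23.5 to 32.7 in WT and 35.1 to 38.2 in SRAKO. The macrophage markers Csf1r, Adgre1, Cd68 and Cd163 each overlapped between genotypes, and Adgre1 had a lower mean in SRAKO.

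In lists of genes around ketone use, 59 genes in all, 44 passed the filter on low values, and by limma with Benjamini-Hochberg adjustment 0 were called in either direction. At an unadjusted p under 0.05 there were also 0 of 44, where 3.46% of all rows had one. Of the 44, 25 had a higher and 19 a lower mean difference in SRAKO, with a median of 0.01, the same as for all rows. Without WT2368 the split was 14 higher and 30 lower with a median of -0.05. Of all rows 61.1% were then lower, with a median of -0.04, and every list count without WT2368 stands against that share. These lists were drawn up with earlier results of the series known.

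**Figure D3:**
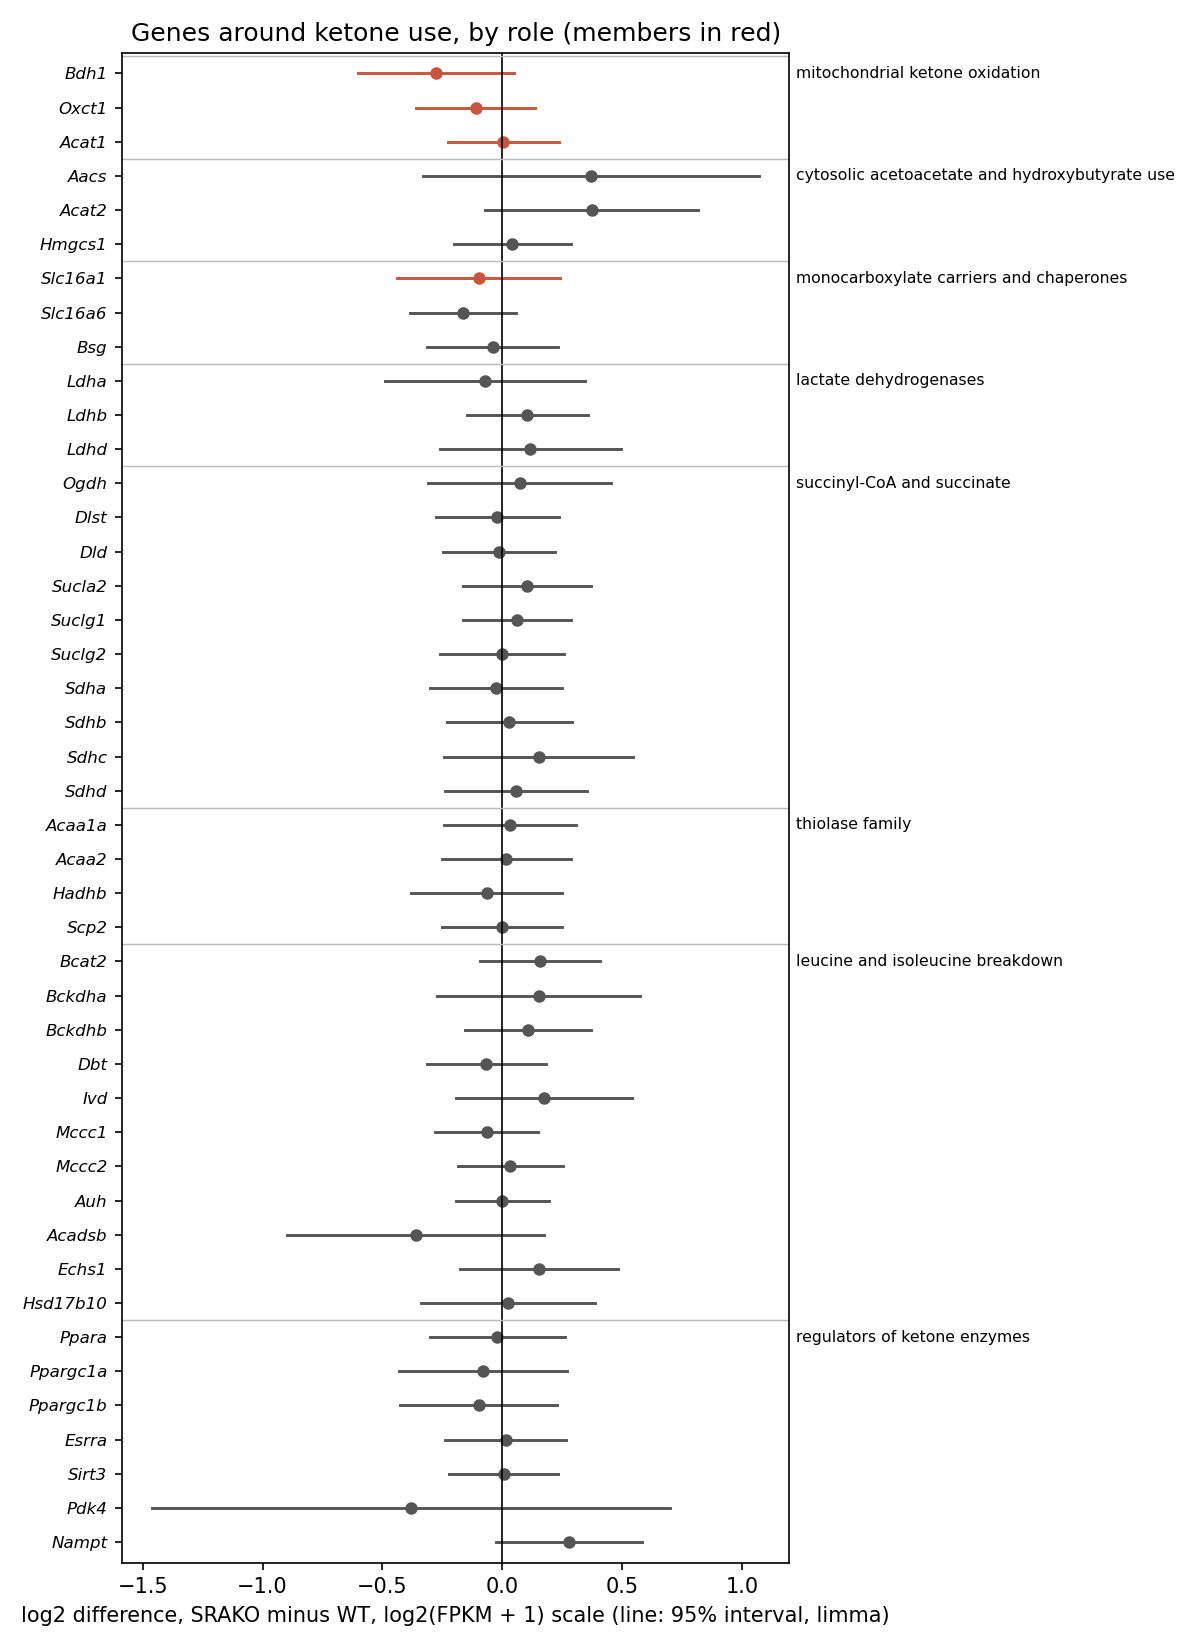
SRAKO minus WT in log2(FPKM + 1) units (x axis; dots, with 95% intervals from limma as lines) for the 44 tested genes, grouped by role, with the 4 genes of this account in red. Every interval includes 0, and Nampt (0.28) has the smallest p of them.

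Of the relatives of the 3 enzymes, some were near 0. The germ-cell transferase Oxct2a was listed above 0 in 1 heart only, at 0.0274 in WT2379, and Oxct2b had no row. Bdh2, a cytosolic dehydrogenase named for its likeness to Bdh1, was at 0.162 to 0.305. The cytosolic thiolase Acat2 was at 1.14 ± 0.291 in WT and 1.82 ± 0.763 in SRAKO, and its near-identical neighbour Acat3, with which it may share reads, was at 0.265 or less. The deposited pathway annotation places Bdh1, Oxct1 and Acat1 under ketone body metabolism and Slc16a1 not.

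Among genes of cytosolic acetoacetate use, Aacs and Acat2 were highest in the same heart, SRAKO2371. Aacs, the synthetase that feeds acetoacetate into lipid synthesis, was at 1.03, 1.28 and 1.38 in WT2368, WT2379 and WT2378 and at 1.05, 3.97 and 1.33 in SRAKO2365, SRAKO2371 and SRAKO2372. Acat2 was at 2.70 in SRAKO2371, against 0.827 to 1.41 elsewhere. The median of the 3 tested genes of this list (with Hmgcs1) was 0.37, and without SRAKO2371 it was 0.03. In the same heart the summed FPKM of 7 adipocyte markers was 265, against 34.4 to 62.7 in WT, 31.7 in SRAKO2365 and 105 in SRAKO2372. Cfd (111) and Ucp1 (98.9) made up most of the sum in SRAKO2371. Of these 7 markers 6 were tested, all 6 with a higher mean in SRAKO, and Lep was below 1 in every heart. The part of fat in the Aacs and Acat2 values was not tested.

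Among carriers, Slc16a1 was the only Slc16 gene of the list above an FPKM of 2. The lactate exporter Slc16a3 (MCT4) was at 0.338 to 0.713, the high-affinity Slc16a7 (MCT2) at 0.507 to 0.712 and Slc16a8 at 0.439 or less. Slc16a6, whose product exports beta-hydroxybutyrate from hepatocytes, shares its row with Gm25540 and was at 1.31 ± 0.192 in WT and 1.06 ± 0.0906 in SRAKO, where the lowest WT heart (1.157 in WT2368) was barely above the highest SRAKO heart (1.156 in SRAKO2371) (log2 difference -0.16; limma, Benjamini-Hochberg adjusted p = 0.999). With Ldhb, it was 1 of 2 genes of the 44 without overlap, against 8.05% of all tested rows. Bsg, which encodes basigin, the chaperone that carries MCT1 to the cell surface, was abundant at 317 ± 11.99 and 309 ± 32.7, while the alternative chaperone Emb was at 0.504 or less. All 3 tested genes of the list had a lower mean in SRAKO (median -0.10, and -0.21 without WT2368). MCT1 is also made by endothelial cells, whose 6 markers summed to 154 to 172 in WT and 152 to 169 in SRAKO; their part in the Slc16a1 values was not tested.

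MCT1 also carries lactate, and 0 of the 3 lactate dehydrogenase genes passed the test. Ldhb, the heart-type subunit, was at 611 ± 46.0 in WT and 655 ± 6.59 in SRAKO, where the lowest SRAKO heart (651.4) was just above the highest WT heart (650.8). Ldha was at 102 ± 23.0 and 95.2 ± 10.1, with its lowest value, 76.5, in WT2368. The surface receptors for these metabolites were near the floor of the table, with Hcar2, the receptor for beta-hydroxybutyrate, at 0.178 or less and the lactate receptor Hcar1 at 0.438 or less.

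OXCT1 draws on succinyl-CoA and releases succinate. The 10 listed genes, which make or convert succinyl-CoA or, as the Sdh genes of succinate dehydrogenase, oxidise succinate, were all tested, with 6 higher, 4 lower and a median of 0.04. Ogdh, the first subunit of the complex that makes succinyl-CoA, was at 392 ± 80.9 in WT and 407 ± 17.5 in SRAKO. Sucla2, a subunit of the succinyl-CoA synthetase that competes with OXCT1 for this substrate, was at 44.8 ± 4.74 and 48.0 ± 2.63. Sdhc, a membrane subunit of succinate dehydrogenase, was at 69.9 ± 15.6 and 76.4 ± 0.715, and the WT spread came from WT2368 at 51.9. Without WT2368 the list had 3 higher and 7 lower with a median of -0.04.

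ACAT1 belongs to the thiolases and ends isoleucine breakdown. Of 8 thiolase genes 6 were tested, 4 higher and 2 lower with a median of 0.01; Acaa2, a mitochondrial thiolase of fatty acid oxidation, was at 255 ± 20.2 and 258 ± 19.0, and Hadhb at 54.9 ± 9.16 and 51.9 ± 0.753. Without WT2368 the thiolases had 1 higher and 5 lower with a median of -0.05. In leucine and isoleucine breakdown all 12 listed genes were tested, 9 higher and 3 lower with a median of 0.03, and 5 higher and 7 lower without WT2368 (median -0.02). Acadsb, the dehydrogenase of branched short acyl-CoA, was at 4.55 ± 2.14 and 3.13 ± 0.167, and its WT mean rested on WT2378 at 7.01. Bcat2, the mitochondrial transaminase of branched-chain amino acids, was at 9.87 ± 1.13 and 11.1 ± 0.474.

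**Figure D4:**
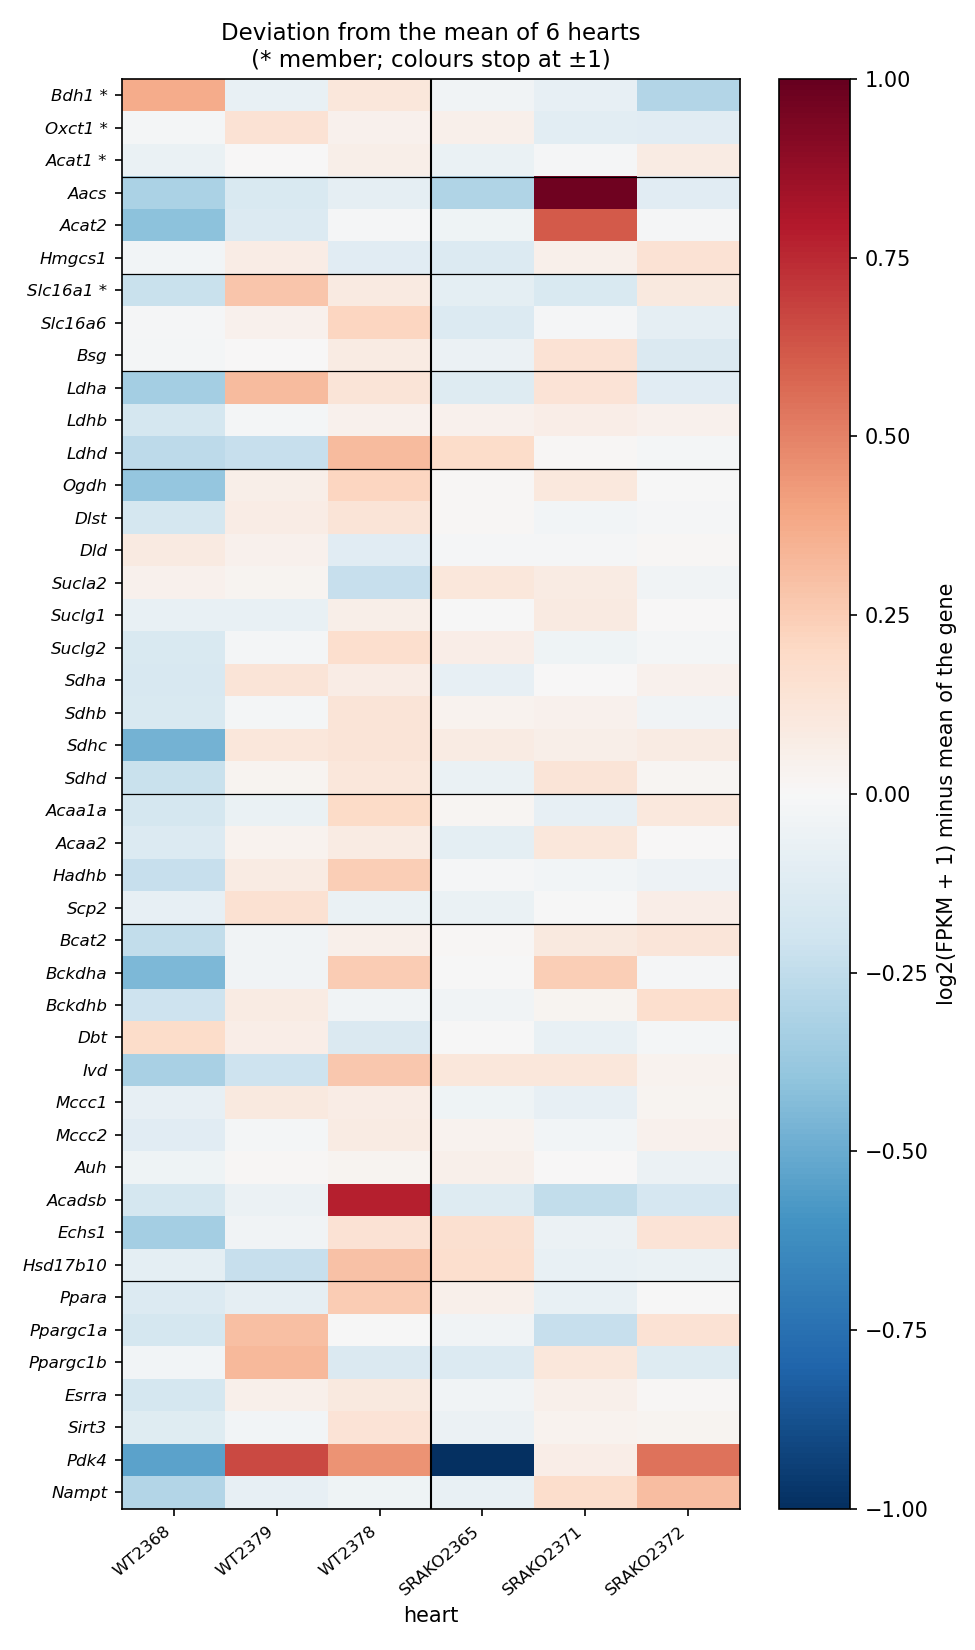
Deviation of each tested gene from its own mean over 6 hearts (colour, log2(FPKM + 1); rows are genes by role, columns are hearts, asterisks mark the 4 genes, colours stop at 1 either way). WT2368 is mostly below the mean while Bdh1 is above it there. The largest deviation is Pdk4 in SRAKO2365 (-1.18, past the colour limit). Aacs (0.97) and Acat2 (0.61) in SRAKO2371, Acadsb in WT2378 (0.775) and Pdk4 in WT2379 (0.66) also stand out.

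Of 8 regulators of ketone enzymes 7 were tested and 0 passed, 3 higher and 4 lower with a median of -0.02. Without WT2368 there were 1 higher and 6 lower with a median of -0.09. The hepatokine Fgf21 was listed above 0 only in WT2379. Ppara, a nuclear receptor for fatty acids, was at 6.53 ± 1.13 and 6.38 ± 0.324. Ppargc1a, a coactivator of mitochondrial genes, was at 9.76 ± 1.81 and 9.14 ± 1.298. Esrra, which shares its row with Mir6990, was at 28.3 ± 2.90 and 28.5 ± 0.849. Pdk4, the kinase that shuts off pyruvate oxidation in fasting, ranged widest, with 75.1, 174 and 150 in WT2368, WT2379 and WT2378 and 47.8, 115 and 160 in SRAKO2365, SRAKO2371 and SRAKO2372. The genotypes overlapped across that range (log2 difference -0.38, SE 0.46; limma, Benjamini-Hochberg adjusted p = 0.999). Nampt, which makes a precursor of the NAD+ that BDH1 uses, was at 16.5 ± 1.59 and 20.3 ± 2.83 (log2 difference 0.28; unadjusted p = 0.0683 in limma), with its highest values in SRAKO2371 and SRAKO2372. In SRAKO2365, SRAKO2371 and SRAKO2372 the summed FPKM of 4 neutrophil markers was 2.501, 27.2 and 51.6, against 0.889 to 9.49 in WT. S100a9 made up most of this sum in every heart (33.9 in SRAKO2372). Of these 4 markers 3 were tested, all 3 with a higher mean in SRAKO, and Ly6g was below 1 in every heart. The part of neutrophils in the Nampt values was not tested.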

How the data were processed

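The authors deposited FPKM for every gene and heart in 1 table, and its 6 value columns were used. The submitters' processing notes list StringTie 1.3.4d, HISAT2 2.0.4, edgeR and cutadapt 1.9 and, as build, the human hg38, although the identifiers are mouse; the build is therefore unclear. Because FPKM is not a count, depth is not given by the table. Libraries used oligo(dT) beads, per the labels' protocols. Groups came from sample titles.

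Symbols were matched to rows split at semicolons, taking the highest mean where several matched. The 10201 rows reaching 1 FPKM in 3 or more hearts were tested on log2(FPKM + 1) with limma 3.58.1 in R 4.3.3, using a variance trend and Benjamini-Hochberg adjustment over all of them (threshold 0.05); the code was tested on simulated data. Genes named are the 4 genes, genes of 9 pathway lists by role with those of smallest p, and the 2 rows nearest in pattern. Summed levels of 11 marker lists describe the hearts. The genes and lists were chosen with earlier results of these data known. In all, 14 alternatives were run. List counts with hearts left out were added after the data were seen. Some genes of the pathway lists are not reported here and are left out of the list counts.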

Additional observations from a re-analysis of the deposited data

How the results depend on the processing

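None of the 4 genes passed limma with Benjamini-Hochberg adjustment under any of the 13 alternatives that could change their values or tests. Bdh1 and Oxct1 kept a difference below 0 in these 13. Changing the filter or dropping the variance trend alters only the tests, so the differences there equal those reported and their sign was fixed. The remaining alternative, summing all rows of a symbol, could not differ because each symbol matched 1 row. Acat1, at 0.0047 as reported, changed sign with median-ratio scaling (-0.010), with array weights (-0.015) and without both WT2368 and SRAKO2371 (-0.023). With each heart left out in turn, the log2 difference ran from -0.036 to 0.039 for Acat1, from -0.23 to 0.014 for Slc16a1, from -0.38 to -0.16 for Bdh1 and from -0.16 to -0.07 for Oxct1. Acat1 was below 0 without WT2368 (-0.029) and without SRAKO2372 (-0.036), and Slc16a1 above 0 without WT2379 (0.014). The number of rows called over the whole table, 2 as reported, was 1 with a pseudocount of 0.1, 1 with a filter at an FPKM of 5, 0 with no filter, 0 without both WT2368 and SRAKO2371, and 0 (without WT2368) to 6 (without WT2378) with a heart left out; the cause was not tested. Median-ratio scaling moved the median of all rows by -0.01 on the log2 scale. No paired analysis was possible because the labels give no batch, litter or pairing of the hearts. Precision is limited by 3 hearts a genotype, and counting error is not known from FPKM.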
